A study of Arabidopsis thaliana with 12 samples.

Results

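The genes described here are the core of the cell division cycle and of DNA replication in *Arabidopsis thaliana*: the A-, B- and D-type cyclins, the cyclin-dependent kinases CDKA and CDKB, the KRP, SIM and SMR1 inhibitors of those kinases, the cytokinesis syntaxin KNOLLE, the aurora kinases AUR1 and AUR2, the helicase subunits MCM2 to MCM7, the licensing proteins CDC6 and CDT1A, the sliding clamp PCNA and the transcription factor E2FA. They were chosen by these roles, with earlier results of these data known, and were found on the array by AGI locus or RefSeq transcript. Of the 45 genes, 44 had a probe and passed the filter on dim probes, out of 25207 genes tested in all, and no probe was matched to *CYCD5;1*. They were sorted into 20 genes of G2 phase and mitosis, 12 of S phase, 8 G1 cyclins, 1 A-type kinase and 4 inhibitors. All 44 were well above background on all 12 arrays.

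In plants, as in other eukaryotes, cyclins bind cyclin-dependent kinases and carry the cell from one phase to the next: D-type cyclins with CDKA act on the retinoblastoma protein and release E2F factors, which turn on the genes of DNA synthesis, and A- and B-type cyclins with CDKA and CDKB drive G2 phase and mitosis. Replication origins are licensed when ORC, CDC6 and CDT1 load the ring of MCM proteins, and PCNA then tethers the polymerases to the template. KRP and SIM/SMR proteins restrain the kinases, MYB3R factors time the mitotic genes, and in roots transcripts of this machinery come mainly from the dividing cells of the meristem behind the tip.

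RNA came from roots of 7-day-old seedlings, in 4 groups of 3 arrays each: *agb1* after 4 h in 150 mM NaCl, *agb1* at 0 h, WT after 4 h in 150 mM NaCl and WT at 0 h. WT is the Columbia-0 ecotype and *agb1* is *agb1-3*, 1 T-DNA insertion allele described as a null mutant of *AGB1*, the gene of the Gβ subunit of the heterotrimeric G protein. The labels call the untreated samples 0 h, whereas the methods of the study describe 4 h without NaCl, so whether the controls were kept in fresh medium for the same 4 h is not settled. Whole roots were used, so that all their cell types are pooled, and fewer dividing cells and less RNA per dividing cell cannot be told apart.

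Values are log2 of the background-subtracted, scanner-processed signal minus the 75th percentile of the array, and they compare samples for 1 gene, not genes with each other. The 75th percentile lay between 1772 and 3582 intensity units, and 74.1% to 76.1% of spots were well above background. In *agb1* at 0 h the first 2 replicates had a spread between arrays of 0.0823, below the 0.116 seen between repeated spots of a probe. A total of 44 probes differed by over 1.5-fold between them, against 213 to 2675 in the other 11 pairs of replicates. They were averaged and counted as 1 sample, so that n = 2 there and n = 3 elsewhere. The brighter *AGB1* (AT4G34460) probe read 0.88, 0.39 and 0.67 in *agb1* at 4 h, 0.07, -0.10 and 0.63 in *agb1* at 0 h, 1.58, 1.32 and 1.26 in WT at 4 h, and 1.42, 1.64 and 1.46 in WT at 0 h. It was lower on every *agb1* array than on every WT array, by 1.20 at 0 h (limma, adjusted p = 0.0340) and by 0.74 at 4 h (adjusted p = 0.112). A dimmer *AGB1* probe was not lower (*agb1* minus WT 0.45 at 0 h and 0.14 at 4 h), and where the probes lie relative to the insertion was not determined.

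The first question was what 4 h of salt did to these genes in each genotype. In WT roots 23 of the 44 genes fell, and none rose, at an adjusted p below 0.05 (limma, Benjamini-Hochberg over all genes), where 11.2% of all genes fell and 8.84% rose. In *agb1* roots 0 of the 44 passed that threshold in either direction, where 0.706% of all genes fell and 1.41% rose, although 26 of the 44 had an unadjusted p below 0.05, as had 22.1% of all genes, and 41 of 44 had a difference below 0, as had 54.1% of all genes. The median over the 44 genes was -0.40 in *agb1* and -0.44 in WT, against -0.04 in *agb1* and -0.10 in WT over all genes. The number passing in *agb1* rested on how the near-identical pair was counted: with 12 arrays as 12 samples it was 18, of which 17 were lower. The count over all genes rose as well, to 3295, of which 1624 were lower, from 533, of which 178 were lower, with the pair averaged. Of the 23 genes that fell in WT, 14 were genes of G2 and mitosis, as the plot of the salt responses by gene shows.

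**Figure D1:**
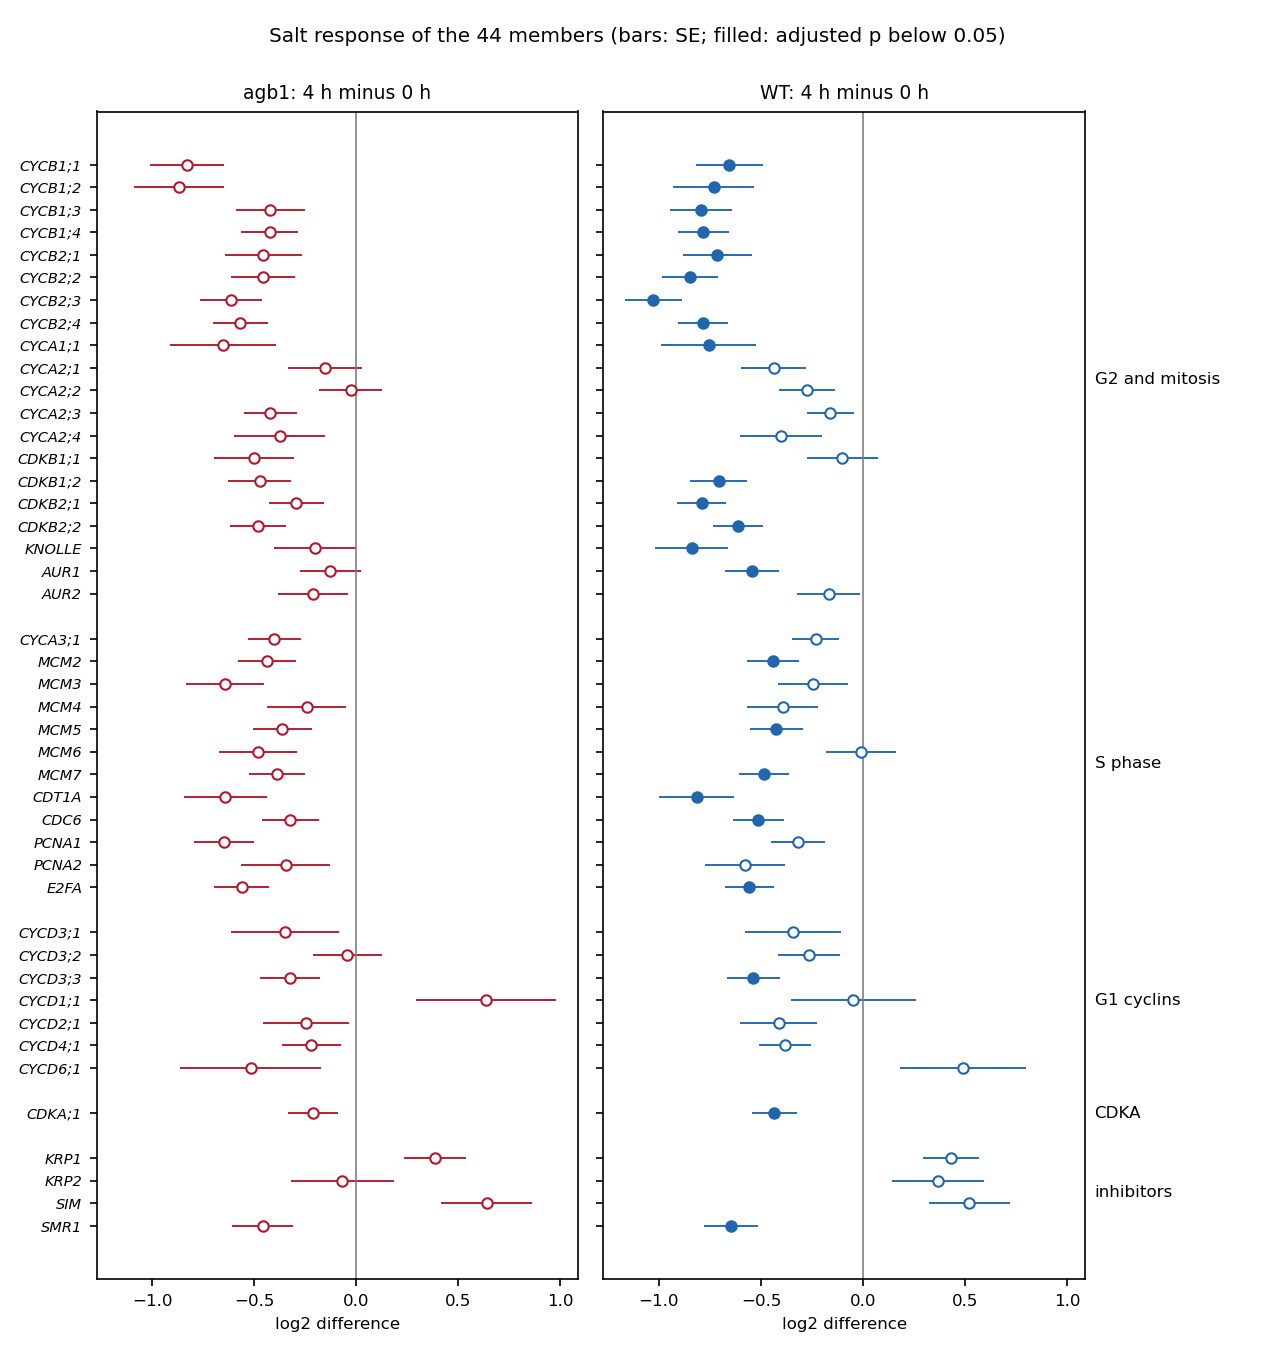
Salt responses of the 44 genes, as the log2 difference of 4 h minus 0 h in *agb1* (left) and WT (right), with 1 gene per line, ordered by role. Bars are standard errors of the fit, and filled points passed an adjusted p of 0.05. In WT 23 points are filled, all below 0, and in *agb1* none is, although 41 of 44 lie below 0.

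The genes of G2 and mitosis had a median salt response of -0.44 in *agb1* and -0.71 in WT, that is, 73.7% of the 0 h signal in *agb1* and 61.1% in WT. In WT 14 of the 20 fell: all 8 B-type cyclins, 1 A-type cyclin, 3 of the 4 B-type kinases, *KNOLLE* and *AUR1*. B-type cyclins activate the kinase at entry into mitosis, and of the 8 largest changes among the 44 genes in WT, 5 were theirs. *CYCB2;3* (AT1G20610) had log2 signals of -3.22, -3.40 and -3.08 in *agb1* at 4 h and -2.59, -2.62 and -2.64 in *agb1* at 0 h. The WT arrays gave -3.60, -3.54 and -3.44 at 4 h and -2.69, -2.28 and -2.53 at 0 h. The 4 h arrays lay below the 0 h arrays in both genotypes, and the WT 4 h arrays were the lowest of all 12. Its difference was -0.61 in *agb1* (SE 0.15, adjusted p = 0.0754) and -1.03 in WT (SE 0.14, adjusted p = 0.00172), which left 49.1% of the WT 0 h signal. The WT call held in every fit that left out 1 array.

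*CYCB2;2* (AT4G35620) read -1.56, -1.60 and -1.48 in *agb1* at 4 h and -1.01, -0.99 and -1.18 in *agb1* at 0 h. In WT the signals were -2.28, -2.14 and -1.96 at 4 h and -1.46, -1.31 and -1.06 at 0 h. Here too the 4 h arrays lay below the 0 h arrays within each genotype, with a difference of -0.46 in *agb1* (adjusted p = 0.141) and -0.85 in WT (adjusted p = 0.00411). This WT call held under every alternative. *CYCB2;4* (AT1G76310) read -2.05, -1.86 and -1.73 in *agb1* at 4 h and -1.47, -1.27 and -1.26 in *agb1* at 0 h. In WT it read -2.27, -2.41 and -2.17 at 4 h and -1.43, -1.53 and -1.52 at 0 h. The 4 h and 0 h arrays did not overlap in either genotype, and the difference was -0.57 in *agb1* (adjusted p = 0.0669) and -0.79 in WT (adjusted p = 0.00327), a WT call that held under every alternative. *CYCB2;1*, the last of the B2 cyclins, differed by -0.46 in *agb1* (adjusted p = 0.202) and fell by 0.71 in WT (adjusted p = 0.0195).

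Among the B1 cyclins, *CYCB1;3* (AT3G11520) gave -0.13, -0.16 and 0.29 in *agb1* at 4 h and 0.45, 0.43 and 0.39 in *agb1* at 0 h. The WT arrays gave -0.59, -0.81 and -0.57 at 4 h and 0.11, 0.01 and 0.28 at 0 h. The 3 WT 4 h arrays were below the 9 others. The salt difference was -0.42 in *agb1* (adjusted p = 0.188) and -0.79 in WT (adjusted p = 0.00778). The WT call held under every alternative. *CYCB1;4* (AT2G26760) gave -0.55, -0.56 and -0.50 in *agb1* at 4 h and -0.17, -0.01 and -0.14 in *agb1* at 0 h. In WT the signals were -1.05, -0.92 and -0.80 at 4 h and -0.34, 0.04 and -0.13 at 0 h. The 4 h arrays lay below the 0 h arrays without overlap in both genotypes, with a difference of -0.42 in *agb1* (adjusted p = 0.135) and -0.78 in WT (adjusted p = 0.00377), and this WT call too held under every alternative. The B1 cyclin whose promoter is the usual reporter of cells in G2 and mitosis had the smallest p of the 44 genes in *agb1*. *CYCB1;1* (AT4G37490) gave -2.43, -2.24 and -1.89 in *agb1* at 4 h and -1.32, -1.36 and -1.37 in *agb1* at 0 h. In WT it read -2.66, -2.66 and -2.36 at 4 h and -1.88, -2.07 and -1.77 at 0 h. All 3 *agb1* 0 h arrays were above the 9 others. The difference was -0.83 in *agb1* (SE 0.18, adjusted p = 0.0546) and -0.66 in WT (SE 0.16, adjusted p = 0.0232). *CYCB1;2* differed by -0.87 in *agb1* (adjusted p = 0.0768) and -0.73 in WT (adjusted p = 0.0317). The A-type cyclin of mitosis, *CYCA1;1*, differed by -0.65 in *agb1* (adjusted p = 0.188) and -0.76 in WT (adjusted p = 0.0492).

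The plant-specific B-type kinases are made from S phase or G2 to mitosis and partner these cyclins. *CDKB2;1* (AT1G76540) read -0.08, -0.38 and -0.24 in *agb1* at 4 h and 0.04, -0.10 and 0.15 in *agb1* at 0 h. The WT arrays gave -0.68, -0.83 and -0.92 at 4 h and -0.00, -0.07 and 0.02 at 0 h. The WT 4 h arrays were the lowest of the 12, and the groups of *agb1* overlapped. Its difference was -0.29 in *agb1* (adjusted p = 0.241) and -0.79 in WT (adjusted p = 0.00308), and the WT call held under every alternative. In WT *CDKB2;2* fell by 0.61 (adjusted p = 0.00985) and *CDKB1;2* by 0.71 (adjusted p = 0.00873), and both calls held in every fit that left out 1 array. The remaining kinase, *CDKB1;1*, differed by -0.50 in *agb1* (adjusted p = 0.180) and -0.10 in WT (adjusted p = 0.710).

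KNOLLE fuses vesicles at the forming cell plate, and aurora kinases act on the spindle and the dividing chromosomes. *KNOLLE* (AT1G08560) had log2 signals of 0.85, 1.36 and 1.51 in *agb1* at 4 h and 1.46, 1.54 and 1.39 in *agb1* at 0 h. In WT the signals were 0.64, 0.49 and 0.67 at 4 h and 1.27, 1.66 and 1.40 at 0 h. The WT 4 h arrays lay below the 9 others, and the *agb1* groups overlapped. The difference was -0.20 in *agb1* (adjusted p = 0.579) and -0.84 in WT (adjusted p = 0.0130), and the other 2 *KNOLLE* probes gave -0.34 and -0.41 in *agb1* and -0.85 and -0.85 in WT. *AUR1* differed by -0.13 in *agb1* (adjusted p = 0.641) and fell by 0.54 in WT (adjusted p = 0.0216). The 6 genes of this group that did not pass in WT were *AUR2*, the B-type kinase just named and the 4 A2-type cyclins, which act with CDKB kinases. Their differences in WT lay between -0.44 for *CYCA2;1* and -0.10.

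**Figure D2:**
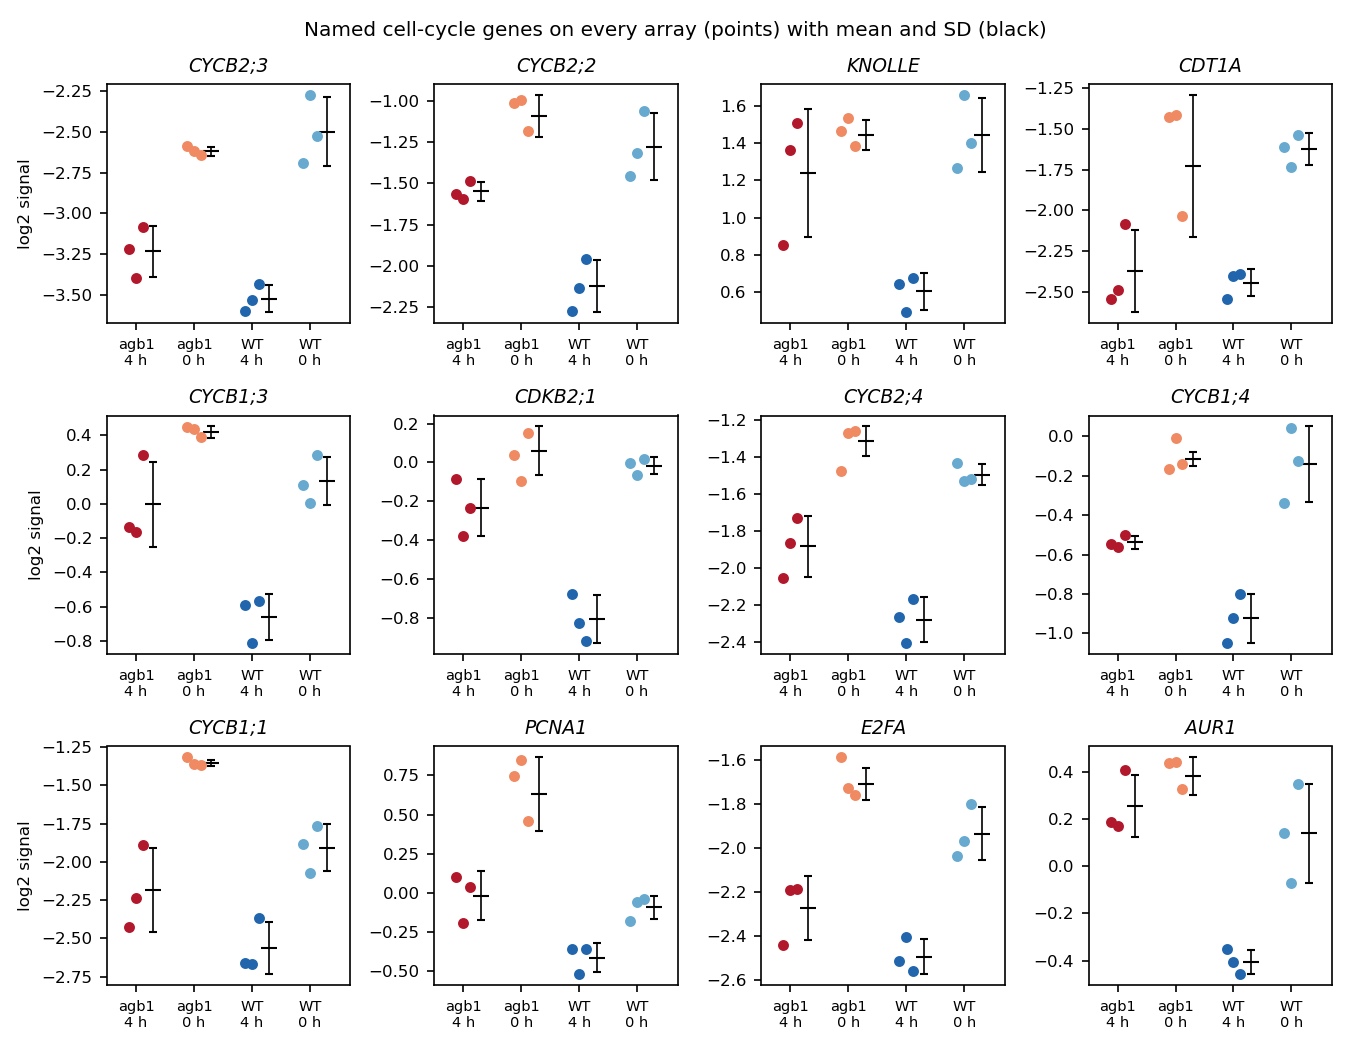
Signal on every array for 12 of the genes (one panel each, log2 signal minus the array's 75th percentile), with points for arrays in the order *agb1* 4 h, *agb1* 0 h, WT 4 h and WT 0 h and black bars for the mean and SD over samples. For *KNOLLE* and *AUR1* the 3 WT 4 h points are the lowest, and for *PCNA1* the *agb1* 0 h points are the highest.

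The S-phase genes had medians of -0.42 in *agb1* and -0.43 in WT, which is 74.8% of the 0 h signal in *agb1* and 74.1% in WT, and all 12 were below 0 in both genotypes. In WT 6 of the 12 fell: *MCM2*, *MCM5* and *MCM7*, subunits of the replicative helicase, *CDC6* and *CDT1A*, which load it, and *E2FA*. *CDT1A* (AT2G31270) had log2 signals of -2.54, -2.49 and -2.08 in *agb1* at 4 h and -1.43, -1.42 and -2.04 in *agb1* at 0 h. In WT it read -2.54, -2.40 and -2.39 at 4 h and -1.61, -1.73 and -1.54 at 0 h. The 4 h arrays of each genotype were below its 0 h arrays, with a difference of -0.64 in *agb1* (SE 0.20, adjusted p = 0.124) and -0.82 in WT (SE 0.18, adjusted p = 0.0154). *E2FA* (AT2G36010) had log2 signals of -2.44, -2.19 and -2.18 in *agb1* at 4 h and -1.59, -1.73 and -1.76 in *agb1* at 0 h. The WT arrays gave -2.51, -2.40 and -2.56 at 4 h and -2.04, -1.97 and -1.80 at 0 h. No 4 h array of this activator of S-phase genes reached a 0 h array of its own genotype. The difference was -0.56 in *agb1* (adjusted p = 0.0663) and -0.56 in WT (adjusted p = 0.0132).

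Among the helicase subunits the differences ran from -0.64 for *MCM3* to -0.24 for *MCM4* in *agb1*, none past the threshold, and from -0.48 for *MCM7* to -0.01 for *MCM6* in WT. *MCM2* gave -0.44 in *agb1* (adjusted p = 0.132) and -0.44 in WT (adjusted p = 0.0409) with its bright probe, but -0.05 in *agb1* and -0.78 in WT with a far dimmer one. The second smallest p in *agb1* was that of the gene of the sliding clamp. *PCNA1* (AT1G07370) had log2 signals of 0.10, -0.19 and 0.04 in *agb1* at 4 h and 0.74, 0.85 and 0.46 in *agb1* at 0 h. In WT the signals were -0.36, -0.52 and -0.36 at 4 h and -0.18, -0.06 and -0.04 at 0 h. The *agb1* 0 h arrays were the highest of the 12, and the 4 h arrays of each genotype lay below its 0 h arrays. The difference was -0.65 in *agb1* (adjusted p = 0.0599) and -0.32 in WT (adjusted p = 0.118), against -0.35 in *agb1* (adjusted p = 0.379) and -0.58 in WT (adjusted p = 0.0681) for its paralog *PCNA2*. *CYCA3;1*, an A-type cyclin of S phase, differed by -0.40 in *agb1* and -0.23 in WT, neither past the threshold.

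The G1 cyclins, which link growth signals to entry into the cycle, had medians of -0.25 in *agb1* and -0.34 in WT. Of the 7 measured, 1 (14.3%) fell in WT, where 11.2% of all genes fell: *CYCD3;3*, by 0.54 (adjusted p = 0.0216). Above 0 were *CYCD1;1* in *agb1* (0.64, adjusted p = 0.306) and *CYCD6;1*, a D cyclin of the formative divisions of the ground tissue, in WT (0.49, adjusted p = 0.284). *CDKA;1*, the kinase active throughout the cycle, differed by -0.21 in *agb1* (adjusted p = 0.341) and fell by 0.44 in WT (adjusted p = 0.0248).

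The 4 inhibitors did not move together. *SMR1* differed by -0.46 in *agb1* (adjusted p = 0.130) and fell by 0.65 in WT (adjusted p = 0.0111). *SIM*, known for keeping trichome cells from dividing, gave positive differences that did not pass, 0.64 in *agb1* (adjusted p = 0.148) and 0.52 in WT (adjusted p = 0.0942), and its second probe gave 0.62 in *agb1* and 0.47 in WT. *KRP1* gave 0.39 in *agb1* (adjusted p = 0.187) and 0.43 in WT (adjusted p = 0.0536), with no overlap between 4 h and 0 h in either genotype. *KRP2* gave -0.07 in *agb1* and 0.37 in WT, with overlapping arrays.

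The direction of the WT change was steadier than the number of genes past the threshold. In every setting, 38 to 41 of the 44 genes were below 0, where 58.7% of all genes were in the main fit. That share was not computed in the other settings. With normexp background correction, which gave the 41, the median of all genes was -0.31, against -0.10 in the main fit. All 23 genes that passed were below 0 on both slides that held WT arrays of both times, with values between -0.98 and -0.40. They were also below 0 under every alternative processing. These 23 were chosen for falling on the same arrays, so their sign there is no separate evidence. The count past the threshold was 6 with normexp background correction and 7 with slide as a fixed block, and it was 9 without replicate 3 and 11 without replicate 1 of WT at 0 h, and 15 without replicate 1 and 13 without replicate 2 of WT at 4 h. Calls over all genes moved too, from 5064 to 1440 with normexp and 1428 with slide as a fixed block. In the fits without these arrays they were 2221, 2630, 4576 and 2606, in the same order. The 8 genes that passed whichever array was left out were 5 B-type cyclins and 3 B-type kinases, and 4 of these cyclins and 1 of these kinases passed under every other alternative as well. The share of all genes that passed in all of these fits was not computed. In *agb1* the count was 3 without replicate 3 of *agb1* at 0 h, 1 without replicate 3 of *agb1* at 4 h and 2 without replicate 3 of WT at 4 h. Over all genes it was 916, 237 and 1288 in these fits, against 533 with all arrays. On the slides that held both times, the median of the 44 genes in *agb1* was -0.19 for replicate 3, -0.44 for replicate 2 and -0.59 for replicate 1.

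Next, *agb1* was set against WT at each time. At 4 h the difference, *agb1* minus WT, was above 0 for 41 of the 44 genes, and for 57.3% of all genes, with medians of 0.41 over the G2 and mitotic genes and 0.28 over the S-phase genes, against 0.05 over all genes. Only *AUR1* passed the threshold, and it was higher in *agb1*, where 0.615% of all genes were higher and 1.04% lower. *AUR1* (AT4G32830) had log2 signals of 0.19, 0.17 and 0.41 in *agb1* at 4 h and 0.44, 0.44 and 0.33 in *agb1* at 0 h. In WT it read -0.35, -0.41 and -0.46 at 4 h and 0.14, -0.07 and 0.35 at 0 h. Every WT 4 h array was below every other array, and the difference at 4 h was 0.66 (SE 0.13, adjusted p = 0.0455). At 4 h samples of 1 replicate number deviated together. With the replicate block 0 of the 44 genes passed, where 317 of all genes did, and the *AUR1* difference had an adjusted p of 0.0839. It also missed the threshold without any 1 of 10 arrays, including each array of the groups compared, with an adjusted p of up to 0.171.

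A further 16 genes had an unadjusted p below 0.05 at 4 h, so that these numbered 17 of 44, where 14.4% of all genes had such a p, and 12 of them were among the 20 G2 and mitotic genes. *KNOLLE* differed by 0.64 (adjusted p = 0.136), *CYCB1;3* by 0.66 (adjusted p = 0.0731) and *CDKB2;1* by 0.57 (adjusted p = 0.0556), none past the threshold. These 3 had no overlap between *agb1* and WT at 4 h. On the 3 slides, each with both genotypes at 4 h, 36 of the 44 genes were above 0 every time. These are the same arrays as in the comparison above, and the share of all genes above 0 on every slide was not computed. The 3 genes with a difference below 0 were inhibitors, *KRP1* (-0.33), *KRP2* (-0.08) and *SMR1* (-0.04), none past the threshold.

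At 0 h the difference between genotypes was above 0 for 31 of the 44 genes, and for 50.1% of all genes, with medians of 0.21 over the G2 and mitotic genes and 0.23 over the S-phase genes, against 0.00 over all genes. *PCNA1* alone passed, and was higher in *agb1* by 0.72 (SE 0.15, adjusted p = 0.0466), where 0.591% of all genes were higher and 1.29% lower. As its values above show, all 3 *agb1* 0 h arrays exceeded the 3 of WT. The adjusted p of *PCNA1* was 0.0895 with the replicate block, 0.194 with slide as a fixed block and 0.0538 without replicate 3 of *agb1* at 0 h. It missed the threshold without any 1 of 8 arrays, all 3 of WT at 0 h among them, with an adjusted p of up to 0.162. The largest other differences were those of *CYCD6;1* (1.07, adjusted p = 0.145), *MCM6* (0.79, adjusted p = 0.0767), *CDKB1;1* (0.72, adjusted p = 0.0999) and *MCM3* (0.68, adjusted p = 0.108). *CYCD6;1* was the dimmest of the 44 genes, with log2 signals of -7.31 to -5.83, where the background correction weighs most. The median over the 44 genes was 0.02 on the slide of replicate 3 and 0.32 on the slide of replicate 1, the only slides with both genotypes at 0 h, so that on the replicate 3 slide it was near 0. Both genotype comparisons share samples with both salt responses.

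**Figure D3:**
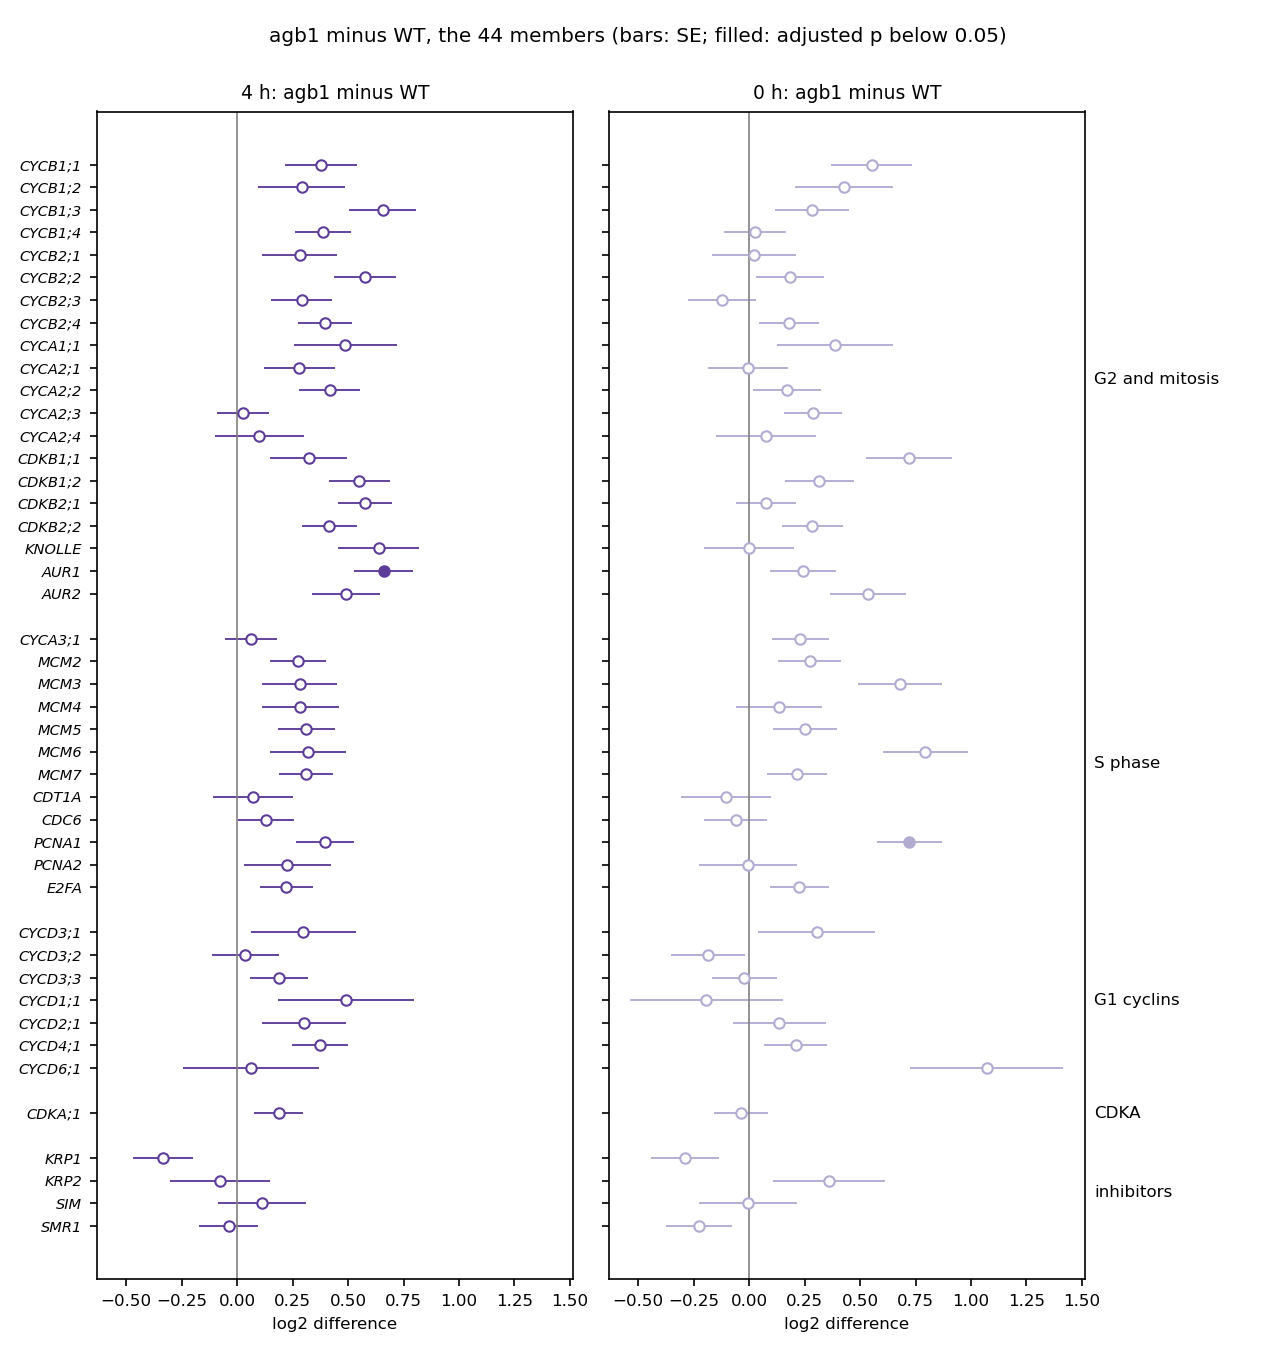
Differences between genotypes, as log2 *agb1* minus WT at 4 h (left) and 0 h (right), with 1 gene per line ordered by role. Bars are standard errors, and filled points passed an adjusted p of 0.05. *AUR1* is filled at 4 h and *PCNA1* at 0 h, and 41 of 44 points at 4 h and 31 of 44 at 0 h lie above 0.

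Whether the salt response itself differed between genotypes was tested by the interaction, the response in *agb1* minus that in WT. None of the 44 genes passed (limma), where 0.0912% of all genes had a higher and 0.0873% a lower response in *agb1*, and 2 of the 44 had an unadjusted p below 0.05, a smaller share than the 12.4% of all genes. The smallest p belonged to *CDKB2;1* (0.50, SE 0.18, adjusted p = 0.320). Next came *KNOLLE* (0.64, SE 0.27, adjusted p = 0.381) and *CYCD6;1* (-1.01, SE 0.46, adjusted p = 0.418). *CYCD6;1* (AT4G03270) read -7.31, -6.25 and -5.97 in *agb1* at 4 h and -5.83, -6.003 and -6.06 in *agb1* at 0 h. The WT arrays gave -6.65, -6.75 and -6.31 at 4 h and -7.10, -7.24 and -6.84 at 0 h. The *agb1* 4 h arrays of this gene spread the most, and its interaction had the opposite sign with normexp background correction (2.27, where the median of all genes was 0.35). The genes that fell in WT and did not pass in *agb1* are thus not shown to respond differently in the 2 genotypes.

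Set against each other within a genotype, the S-phase genes and the mitotic genes responded to salt by nearly the same median in *agb1* (-0.42 and -0.44) and by unequal medians in WT (-0.43 and -0.71). The S-phase median response minus the mitotic one was 0.02 in *agb1* and 0.28 in WT. On single arrays, the S-phase median signal minus the mitotic median signal had an SD of 0.0955 between arrays of a group. That SD counts the near-identical arrays separately and is not an error of the 0.02 or the 0.28. After centring each gene on its mean of the 4 groups, the single-array difference was 0.02, 0.01 and -0.04 in *agb1* at 4 h, 0.18, 0.03 and -0.08 in *agb1* at 0 h, 0.04, 0.22 and 0.20 in WT at 4 h, and -0.05, -0.13 and 0.01 in WT at 0 h. On this centred scale the WT times did not overlap, by a narrow margin (0.01 against 0.04), and the *agb1* times did. Without centring, the WT times overlapped as well. There WT replicate 1 had an S-phase median of -0.82 and a mitotic median of -1.43 at 0 h, against -1.44 and -1.98 at 4 h. Within each set the WT values were uneven. They ran from -0.82 for *CDT1A* to -0.01 for *MCM6* in S phase, and from -1.03 for *CYCB2;3* to -0.10 for *CDKB1;1* in the mitotic set. The other replication and other mitotic genes listed below did not show the same gap. Their median salt responses in WT were closer together, -0.49 for 20 replication genes and -0.57 for 11 mitotic genes. In *agb1* they were -0.36 for replication and -0.24 for mitosis.

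**Figure D4:**
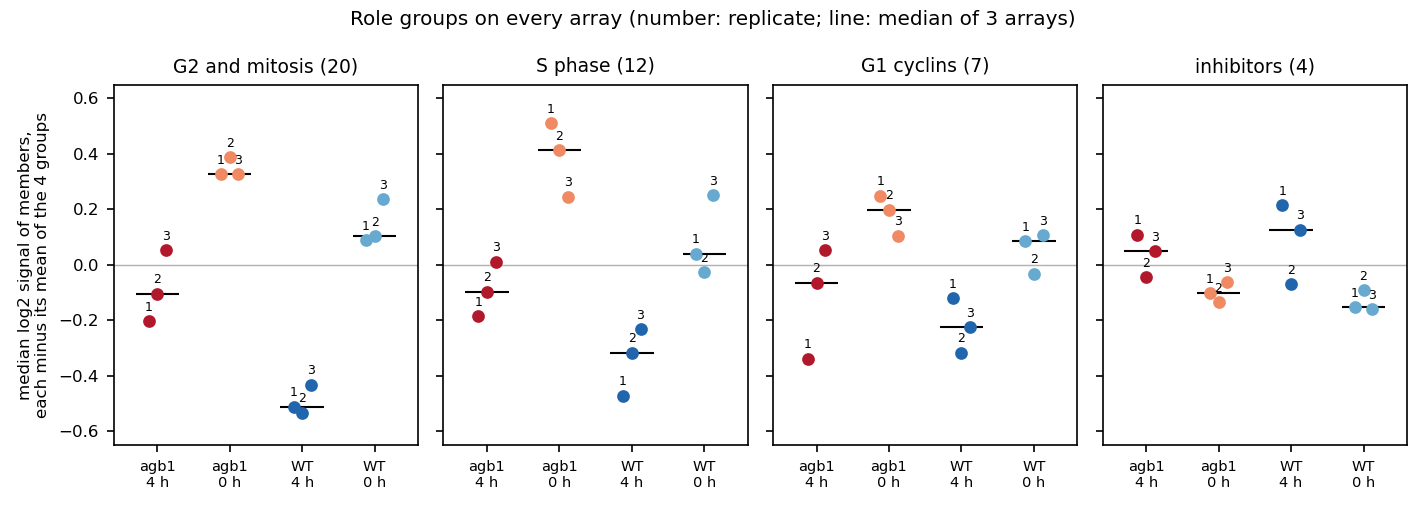
Median over the genes of each role on every array, each gene centred on its mean of the 4 groups (log2), for *agb1* 4 h, *agb1* 0 h, WT 4 h and WT 0 h from left to right, with replicate numbers beside the points. On this centred scale the G2 and mitotic medians do not overlap between any of the 4 groups. They order the groups as *agb1* 0 h, WT 0 h, *agb1* 4 h and WT 4 h from high to low. Without centring, those of *agb1* 4 h (-1.62 to -1.34) and WT 0 h (-1.43 to -1.26) overlap. The near-identical arrays of *agb1* 0 h are shown as separate points.

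On this centred scale the mitotic median lay between -0.20 and 0.05 in *agb1* at 4 h, 0.33 and 0.39 in *agb1* at 0 h, -0.53 and -0.43 in WT at 4 h, and 0.09 and 0.24 in WT at 0 h. The S-phase median lay between -0.18 and 0.01 in *agb1* at 4 h, 0.25 and 0.51 in *agb1* at 0 h, -0.47 and -0.23 in WT at 4 h, and -0.03 and 0.25 in WT at 0 h, so that the S-phase medians of both *agb1* groups overlapped those of WT at 0 h. The summed linear signal of the 20 mitotic genes, in units of the array's 75th percentile, was 9.68 to 12.1 in *agb1* at 4 h, 13.5 to 14.5 in *agb1* at 0 h, 7.29 to 7.81 in WT at 4 h and 11.4 to 12.6 in WT at 0 h.

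Other genes of the same pathways were listed alongside, 52 in all, of which 51 were tested and *SMR5* had no matched probe. In WT 17 of the 51 fell after salt and 0 rose, where 11.2% of all genes fell and 8.84% rose. In *agb1* 0 passed, where 0.706% of all genes fell and 1.41% rose. There 17 had an unadjusted p below 0.05, as had 22.1% of all genes. All 17 that fell in WT were below 0 in WT in every fit, which their choice on the same arrays largely fixes. Only *CDC45*, *ORC1B* and *CCS52B* passed whichever array was left out, and of these only *CDC45* under every other alternative. The share of all genes that did so was not computed. The replication genes supplied 10 of the 17: *CDC45*, *ORC1A*, *ORC1B*, *ORC4*, *CDC6B*, *CDT1B*, *ETG1*, *ICU2*, *FAS1* and *FAS2*. The largest difference among these was that of *CDC45*, whose product joins the MCM ring to form the active helicase. *CDC45* (AT3G25100) had log2 signals of -1.96, -1.51 and -1.61 in *agb1* at 4 h and -1.07, -1.03 and -1.50 in *agb1* at 0 h. In WT the signals were -1.56, -1.48 and -1.67 at 4 h and -0.51, -0.14 and -0.28 at 0 h. The WT 0 h arrays were the highest of the 12. Its difference after salt was -0.42 in *agb1* (adjusted p = 0.245) and -1.26 in WT (SE 0.17, adjusted p = 0.00192). It was also the only gene of the 51 past the threshold between genotypes at 0 h. There it was lower in *agb1* (-0.96, adjusted p = 0.0452), where 1.29% of all genes were lower. Its direction was opposite to that of *PCNA1*, and this call was lost without any 1 of 8 arrays.

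Of the other mitotic genes, 6 of 11 fell in WT: the activators of the anaphase-promoting complex *CDC20.1*, *CDC20.2* and *CCS52B*, the microtubule-binding *PLE*, the phragmoplast kinesin *HIK* (-0.85, adjusted p = 0.0201) and *CYCB3;1*. The E2F, DP, MYB3R, KRP, SMR and CKS genes and the other regulators of the list gave 1 of 20, *SMR4* (-1.14, adjusted p = 0.0381). That is 5%, a smaller share than the 11.2% of all genes that fell in WT. *RBR1*, the retinoblastoma protein, gave -0.55 in *agb1* and -0.03 in WT, neither past the threshold. At 4 h 4 of the 51 passed the threshold as higher in *agb1* than in WT, where 0.615% of all genes did: *ORC4* (0.64, adjusted p = 0.0428), *CDC6B* (0.60, adjusted p = 0.0447), *CCS52B* (0.69, adjusted p = 0.0408) and *CYCB3;1* (0.63, adjusted p = 0.0363). Each of these 4 missed the threshold with the replicate block and in at least 8 of the 12 fits that left out 1 array. No pathway gene passed the interaction (limma), and 3 of 51 had an unadjusted p below 0.05, against 12.4% of all genes.

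Markers of root cell types moved with salt as well. Over all genes 11.2% fell and 8.84% rose in WT, and 0.706% fell and 1.41% rose in *agb1*. Of 5 genes of the root stem cell niche and its patterning, 2 fell in WT, *SCR* (-0.73, adjusted p = 0.0306) and *SHR* (-0.64, adjusted p = 0.0499), and 0 passed in *agb1*, while *PLT1* gave -0.70 in *agb1* (adjusted p = 0.201) and -0.78 in WT (adjusted p = 0.0642) and *WOX5*, a quiescent-centre gene, 0.47 in *agb1* and 0.73 in WT. The *SCR* call held in 7 and the *SHR* call in 3 of the 12 fits that left out 1 array. Their summed signal ranged over 2.15 to 3.32 in *agb1* at 4 h, 2.80 to 3.72 in *agb1* at 0 h, 2.22 to 2.93 in WT at 4 h and 3.39 to 4.11 in WT at 0 h. Of 5 genes of the endodermal Casparian strip, *CASP4* and *CASP5* rose, by 2.19 and 1.93 in *agb1* (adjusted p = 0.0153 and 0.0283) and by 1.76 and 1.28 in WT (adjusted p = 0.00439 and 0.0203), and the summed signal of the 5 ranged over 23.0 to 45.5 in *agb1* at 4 h, 17.6 to 18.5 in *agb1* at 0 h, 26.5 to 34.7 in WT at 4 h and 25.1 to 28.2 in WT at 0 h. None of 4 root hair markers and none of 5 leaf markers passed in any comparison, with summed signals over 2.43 to 3.24 in *agb1* at 4 h, 3.75 to 10.5 in *agb1* at 0 h, 2.13 to 9.29 in WT at 4 h and 5.21 to 6.16 in WT at 0 h for root hairs, and over 3.98 to 5.21 in *agb1* at 4 h, 2.30 to 2.98 in *agb1* at 0 h, 2.86 to 7.87 in WT at 4 h and 3.56 to 4.78 in WT at 0 h for leaf. The part of these shifts in the results for the cell cycle genes was not tested.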

How the data were processed

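RNA from roots was hybridised to 12 one-colour Agilent arrays, 4 groups of 3. The labels name TRI reagent and the methods a column kit for the RNA. The authors deposited scanner output, not normalised, whose processed intensity is background-subtracted and was used; Feature Extraction is version 10.7.1.1 per the file headers and 9.1 in the submitters' processing notes. The methods state 3 independent replicates and no test for the arrays. From the deposited intensities, log2 values minus each array's 75th percentile were computed, control spots, outlier spots and probes not well above background were left out, and the brightest probe of each gene was kept. Probes were matched to genes by AGI locus or RefSeq transcript through the TAIR10.1 RefSeq gene table. Probe sequences were not read here, so cross-hybridisation between close paralogs was not checked. The number of arrays limits the precision.

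Group means were fitted with limma 3.58.1 (R 4.3.3) over 25207 genes and all 4 groups, 11 samples, with Benjamini-Hochberg adjustment and calls at an adjusted p below 0.05, after tests on simulated data. A like-with-like comparison with repeated spots put only *agb1* 0 h replicates 1 and 2 below spot noise. WT 0 h replicates 1 and 3 were close to it, with a spread of 0.150 against 0.145. A comparison of variances also put WT 0 h replicates 1 and 3, and 2 and 3, below it. These WT arrays were kept as separate samples. Slides held replicate 3 of all groups, replicate 1 of all groups, replicate 2 of all but WT 0 h, and WT 0 h replicate 2. Deviations of same-numbered samples correlated at 0.58, 0.35 and 0.37 between genotypes at 4 h, which was taken as pairing; in the other comparisons they did not all exceed 0.1, so that block is given beside the 4 h results. Values on every array are given for genes past the threshold (the 8 largest where more passed) or, where none passed, the 3 with the smallest p; *CDC45* was added after its values were seen. The genes and lists were chosen with earlier results of these data known. Alternatives were another background correction, other scalings and filters, the mean of all probes, slide or replicate as a block, 12 arrays as 12 samples, only the groups compared and leaving out each array.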

Additional observations from a re-analysis of the deposited data

How the results depend on the processing

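Of the differences of named genes, 1 reversed, the interaction of *CYCD6;1* (2.27 with normexp background correction). Counts of genes past the threshold moved more. For the salt response in *agb1* the count was 0, and it was 18 with 12 arrays as 12 samples, 11 with these and the replicate block (an alternative chosen after seeing the data), 1 with slide as a random block and 0 to 3 when 1 array was left out. Over all genes 533 passed, and in the same order 3295, 2464, 612 and 132 to 1288. For the salt response in WT the count among the 44 genes was 23, against 6 with normexp, 7 with slide as a fixed block and 9 to 25 when 1 array was left out. Over all genes 5064 passed, and in the same order 1440, 1428 and 2221 to 5539. At 0 h the count among the 44 was 1, against 0 with normexp, 0 without the filter, 0 with slide as a fixed block, 7 with 12 arrays as samples and 0 to 2 when 1 array was left out. Over all genes 474 passed, and in the same order 7, 264, 10, 2245 and 39 to 819. At 4 h the count among the 44 was 1, against 0 with normexp, 0 without the filter, 2 with median scaling, 3 with 12 arrays as samples, 3 with slide as a random block, 0 with slide as a fixed block, 0 with only the groups compared and 0 to 1 when 1 array was left out. Over all genes 416 passed, and in the same order 20, 305, 453, 596, 582, 130, 94 and 161 to 454.

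With the replicate block the counts among the 44 were 0 in *agb1*, 20 in WT, 0 at 0 h, 0 at 4 h and 0 for the interaction. Over all genes they were 270, 4485, 152, 317 and 29. With the block and 12 arrays as samples the counts among the 44 were 4 at 0 h and 3 at 4 h, and with the 4 h arrays alone and the block 0 (both chosen after seeing the data). Over all genes these were 1811, 476 and 38. Deviations of same-numbered samples correlated at 0.21, 0.09 and 0.19 in the WT salt comparison, all above 0 but lower than at 4 h. They correlated at 0.01, 0.11 and -0.10 in the *agb1* salt comparison, and at -0.02, -0.003 and -0.20 at 0 h.

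The S-phase minus mitotic median was 0.18 in WT with slide as a fixed block, and with normexp 0.14 at 0 h, -0.24 at 4 h and -0.36 for the interaction. When 1 array was left out it ran from -0.091 to 0.046 for salt in *agb1*, -0.033 to 0.12 at 0 h and -0.37 to -0.16 for the interaction, with the extremes -0.091, 0.12 and -0.37 all without replicate 3 of *agb1* at 0 h. Normexp moved the median of all genes by over 0.1 in every comparison. The median difference for salt in *agb1* (0.02) and that at 0 h (0.02) were close to 0 and had no stable sign: the one was -0.070 with normexp and -0.047 with 12 arrays as samples, and the other -0.011 with quantile normalization. The causes were not tested.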
